A study of Homo sapiens with 6 samples.

Results

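The 39 genes described here encode the chaperones, calcium-binding proteins, disulfide exchange enzymes and degradation machinery of the endoplasmic reticulum (ER), together with the sensors that watch over protein folding there. They were taken by gene symbol from a named list, and all 39 were found among the 26902 symbols of the table. Of these, 38 passed the filter on low values, at least 1 TPM in at least 3 libraries, as did 13266 genes in all. The gene left out was DERL3. TPM is a read level per unit of transcript length, set so that every library has an equal sum, which lets genes be compared with each other as well as libraries.

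The cells were HMCB, a human melanoma line whose genotype the labels give as Nras Q61K, which both groups carry. The 3 libraries of the siNC group had a control siRNA and the 3 of the siAHCYL1 group an AHCYL1 siRNA, with 3 days of transfection before RNA was taken. Every library comes from the same cell line. The question of the study is how AHCYL1 acts on ER calcium and on proliferation of melanoma cells with mutant NRAS. The labels call the replicates biological and name no separate cultures, so p-values measure only the spread between these libraries, which may be technical.

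Proteins bound for the cell surface or for secretion fold in the ER. The HSP70 chaperone BiP (HSPA5), with J-domain helpers and the HSP90 paralog GRP94 (HSP90B1), holds unfolded chains, calreticulin and calnexin bind chains that carry trimmed sugars, and protein disulfide isomerases form and rearrange disulfide bonds. Many of these proteins bind calcium with low affinity and high capacity, which makes them both folding factors and the buffer of the calcium store that IP3 receptors open. AHCYL1, also known as IRBIT, was named for its binding to the IP3 receptor. Chains that do not fold are extracted and degraded, a process called ER-associated degradation (ERAD), and when they build up the sensors IRE1 (ERN1), PERK (EIF2AK3) and ATF6 raise the expression of chaperone genes.

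AHCYL1 had 150.02, 134 and 131 TPM in siNC and 13.5, 11.1 and 11.0 TPM in siAHCYL1, so the siRNA target stood at 8.56% of its control mean (limma adjusted p = 5.64e-08, exact permutation p = 0.1, the smallest possible with 3 against 3). Of 8 melanocyte markers, SOX10 was abundant (993 to 1050 TPM over the 6 libraries), TYR was listed at 0 in every library and MLANA stayed under 1 TPM, while 3 of the 8 (PMEL, S100B and TYRP1) were higher and DCT was lower. Marker lists of epithelium, fibroblasts, immune and blood cells and endothelium summed to at most 32.4 TPM in any library, and KRT5, CDH1, PDGFRA, CD3E, HBB and VWF were listed at 0 in all 6. The summed fibroblast markers ranged from 15.3 to 17.9 TPM in siNC and from 26.1 to 32.4 TPM in siAHCYL1, mostly LUM, and those of immune and blood cells from 3.60 to 4.55 and from 7.67 to 11.5 TPM, mostly PTPRC. Those of endothelium lay at 8.81 to 11.2 TPM in siNC and at 6.26 to 7.19 TPM in siAHCYL1, mostly KDR. The part of these markers in the results below was not tested. In bulk RNA, fewer cells of a type and less RNA per cell cannot be told apart.

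After the AHCYL1 siRNA, 13 of the 38 tested ER genes were higher, 6 were lower and 19 did not pass the test (limma, adjusted p under 0.05 over all genes tested). Changed genes made up 50.0% of these 38, against 51.6% of all 13266 genes. For higher genes the shares were 34.2% of the ER genes and 30.4% of all genes, and for lower genes 15.8% and 21.2%. The share of changed genes among the ER genes was thus near that of the whole table. Their median log2 fold change was 0.10, and that of all genes 0.06. None of the 19 changed by 2-fold or more, where 8.36% of all genes did. The values of the groups did not overlap for 22 of the 38 (16 higher, 6 lower), against 59.2% of all genes. Under quantile normalization, which moved the share of higher genes among all calls from 58.9% to 48.1%, 13 of the ER genes were higher and 8 lower. Of all 13266 genes, 3471 were then higher and 3743 lower.

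Replicate 1 of each group tended to hold the highest value of its group, in 25 of the 38 ER genes in siNC and in 28 in siAHCYL1 (65.8% and 73.7%, against 44.9% and 58.0% of all genes). Without replicate 1 of both groups, 16 of the 38 were higher and 6 lower. Of the 12821 genes tested in that refit, 3882 were higher and 2919 lower.

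The 39 genes together held 10563, 10457 and 9897 TPM in the siNC libraries and 12133, 11549 and 11406 TPM in the siAHCYL1 libraries, 1.13-fold more by the means. That is between 0.990% and 1.06% of a control library and between 1.14% and 1.21% of a siAHCYL1 library, with no overlap. The difference was not spread evenly over the roles. The lectin chaperones went from 1810 ± 63.0 to 2391 ± 43.5 TPM (SD, n = 3), 1.32-fold. Within this pair the mean of CALR went from 1154 to 1809 TPM and that of CANX from 656 to 582 TPM. The secreted proteins CRELD2 and MANF went from 359 ± 23.3 to 464 ± 25.0 TPM, 1.29-fold, whereas the CREC family summed to 1241 ± 33.8 and 1248 ± 57.7 TPM. The 5 most abundant genes in the controls, PDIA4, CALR, HSP90B1, HSPA5 and P4HB, made up 46.3% of the total in each siNC library and between 51.1% and 51.4% in siAHCYL1. Beside CALR, the mean of P4HB went from 686 to 1087 TPM and that of HSP90B1 from 898 to 1142 TPM. Those of HSPA5 went from 754 to 845 TPM and of PDIA4 from 1280 to 1108 TPM.

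The order at the top changed. PDIA4 was the most abundant in siNC (1231 to 1334 TPM) and lay above CALR (1151 to 1155 TPM) in every library. In siAHCYL1 CALR was first (1776 to 1839 TPM), and HSP90B1 (1057 to 1286 TPM), PDIA4 (1082 to 1142 TPM) and P4HB (1060 to 1120 TPM) followed with values that overlap one another. At the low end were DERL2 (14.5 to 19.1 TPM over both groups) and DERL3, whose highest value was 0.72 TPM. DERL3 had 0.19, 0.19 and 0.69 TPM in siNC and 0.57, 0.72 and 0.41 TPM in siAHCYL1. SMARCB1, a gene of the opposite strand with a mean of 142 TPM, overlaps 87.3% of its exon bases in GENCODE v29, and these libraries do not keep the strand. In all, 14 of the 39 genes share exon bases with a gene of the opposite strand, among them PDIA6 (29.7%), OS9 (24.4%), P4HB (20.3%) and CALR (14.2%), and reads from such stretches cannot be told apart. The PDIA6 partner, ATP6V1C2, had a mean of only 1.26 TPM, beside 560 TPM for PDIA6 in siNC. The partners of OS9, P4HB and CALR have no TPM here, so their level is unknown. RCN1 shares 36.4% of its exon bases with AL035078.4 on the same strand.

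**Figure D1:**
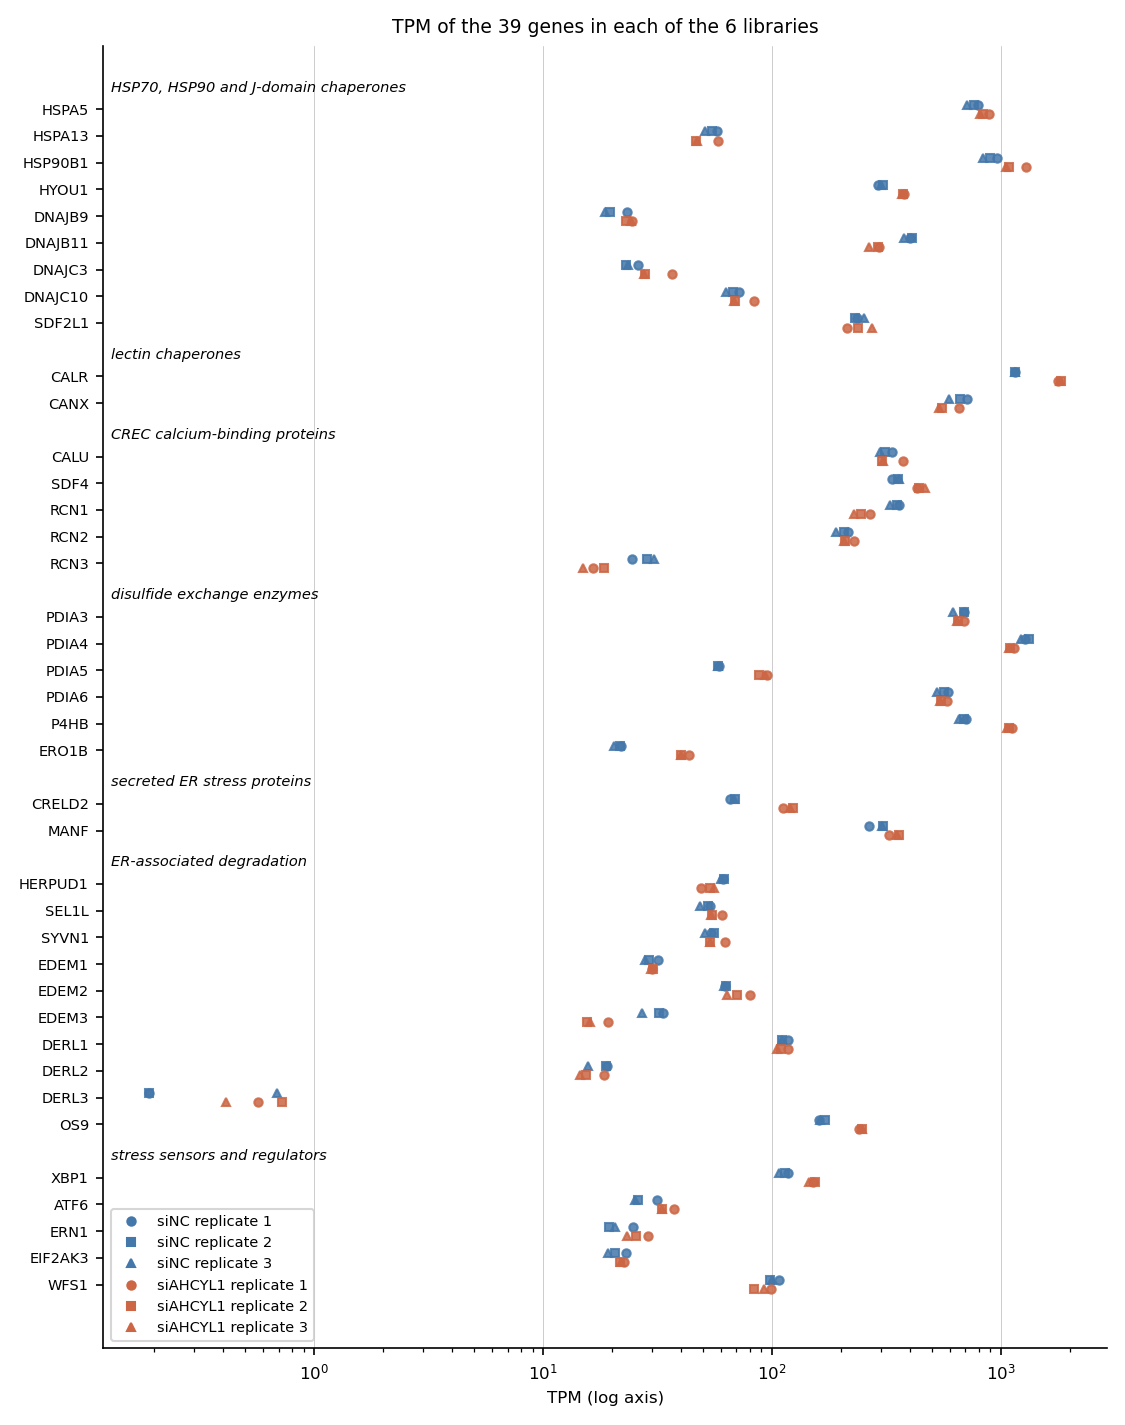
TPM (log axis) of each of the 39 genes in the 3 siNC and 3 siAHCYL1 libraries, 1 point per library, grouped by role. CALR, P4HB, PDIA5, ERO1B, CRELD2 and OS9 show the siAHCYL1 points clearly to the right of the control points, and EDEM3, RCN1, RCN3 and DNAJB11 to the left.

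Many ER chaperone genes are known to carry an ER stress element in the promoter, which ATF6 binds together with the CCAAT-binding factor NF-Y. The RefSeq promoter windows of GRCh38.p14, 250 bases before to 50 bases after each annotated start, were searched on both strands, and 36 of the 39 genes had at least 1 window (42 windows). The element ERSE, CCAAT followed after any 9 bases by CCACG, stood in 27 of 35116 windows (0.0769%), or 25 of 27305 genes (0.0916%). Of those 25 genes, 8 are ER genes described here, namely HSPA5, HSP90B1, CALR, CANX, PDIA6, ERO1B, CRELD2 and XBP1. The upstream windows of CALR and HSPA5 are shown whole because calreticulin was the most abundant of the 39 in siAHCYL1 and higher there, while BiP, the textbook carrier of this element, did not pass the test. Both read 5′ to 3′ on the strand of the gene, with the CCAAT and CCACG blocks (or their complements) in capitals.

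CALR (chr19:12938359-12938608, plus strand): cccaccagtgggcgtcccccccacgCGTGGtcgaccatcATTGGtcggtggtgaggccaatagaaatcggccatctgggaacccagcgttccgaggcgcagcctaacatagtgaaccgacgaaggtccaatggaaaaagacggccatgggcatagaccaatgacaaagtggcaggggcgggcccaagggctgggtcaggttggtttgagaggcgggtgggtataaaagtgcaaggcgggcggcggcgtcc
HSPA5 (chr9:125241344-125241593, minus strand): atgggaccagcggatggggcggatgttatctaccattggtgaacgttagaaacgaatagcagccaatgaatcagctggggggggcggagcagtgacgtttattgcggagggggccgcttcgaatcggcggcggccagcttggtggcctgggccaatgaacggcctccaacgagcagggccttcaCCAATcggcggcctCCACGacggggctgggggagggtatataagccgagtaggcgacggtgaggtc

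CALR carried its single exact match 225 bases before the start, in the opposite orientation, and HSPA5 carried 1 match 66 bases before the start. The other exact matches are shown with 12 bases on each side, to let the blocks and spacers be compared.

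ERO1B (chr1:236282171-236282208, minus strand): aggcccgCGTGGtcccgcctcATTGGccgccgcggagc
CRELD2 (chr22:49918542-49918584, plus strand): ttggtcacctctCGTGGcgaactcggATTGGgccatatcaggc
XBP1 (chr22:28800591-28800633, minus strand): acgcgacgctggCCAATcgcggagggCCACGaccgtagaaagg
HSP90B1 (chr12:103930204-103930246, plus strand): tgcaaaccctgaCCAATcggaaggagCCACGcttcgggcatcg
HSP90B1 (chr12:103930309-103930351, plus strand): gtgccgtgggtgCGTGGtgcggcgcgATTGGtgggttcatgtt
PDIA6 (chr2:10812841-10812883, minus strand): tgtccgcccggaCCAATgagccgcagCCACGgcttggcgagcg
CANX (chr5:179698766-179698808, plus strand): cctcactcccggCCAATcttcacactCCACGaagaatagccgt

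The flank of the ERO1B element is shorter on its 5′ side because the window ends there. HSP90B1 was the 1 gene with a pair of separate matches, and the CANX element was counted from 3 annotated starts. Of these 8 genes, 5 were higher after the AHCYL1 siRNA (ERO1B, CRELD2, CALR, XBP1 and HSP90B1), 0 were lower and 3 did not pass (HSPA5, PDIA6 and CANX), where 30.4% of all genes were higher. The 16 tested genes with the element in the table include these 8, and also ALG12, whose element is that of CRELD2. Of the 16, 9 were higher and 2 lower, where 21.2% of all genes were lower.

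A related element, ERSE-II, is ATTGG, any base, then CCACG, and was searched after the first results were seen. It stood in 19 of 35116 windows (0.0541%) and in 3 of the ER genes, HYOU1, HERPUD1 and SDF2L1, shown in the same way.

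HYOU1 (chr11:119057368-119057402, minus strand): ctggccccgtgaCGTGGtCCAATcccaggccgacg
HYOU1 (chr11:119057262-119057296, minus strand): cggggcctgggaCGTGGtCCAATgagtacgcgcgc
HERPUD1 (chr16:56932013-56932047, plus strand): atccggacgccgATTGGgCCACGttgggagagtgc
SDF2L1 (chr22:21642102-21642136, plus strand): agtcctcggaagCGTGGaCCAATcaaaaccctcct

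These 3 genes went different ways: HYOU1, which carries the element at 2 places, was higher, HERPUD1 was lower and SDF2L1 did not pass. Among all 13 tested genes with ERSE-II, 4 were higher and 3 lower, where 30.4% and 21.2% of all genes were. The sequence TGACGTGG, which XBP1 and ATF6 are known to bind, stood in 256 windows (0.729%). Among them were those of HYOU1, where it overlaps an ERSE-II match, and DNAJC10. Of the 119 tested genes with TGACGTGG, 44 were higher and 19 lower. CCAAT followed after 1 base by CCACG stood in 8 windows (0.0228%) and in none of the ER genes. A match describes the letters of the window and was not tested as a binding site.

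**Figure D2:**
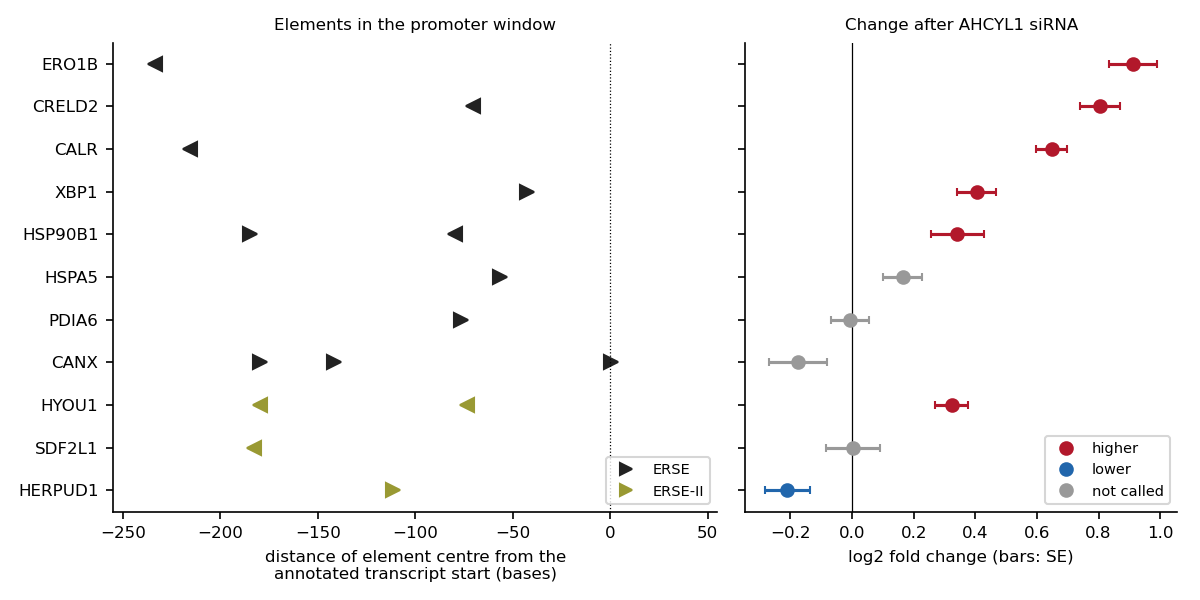
Left, distance of each exact ERSE or ERSE-II match from the annotated transcript start in bases, with the arrow showing its orientation, for the 11 genes that carry one (the 3 CANX points are 1 element seen from 3 starts). Right, log2 fold change of the same genes with its SE, from 0.91 for ERO1B to -0.21 for HERPUD1.

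Of the 9 HSP70, HSP90 and J-domain chaperone genes, 3 were higher, 1 was lower and 5 did not pass. Beside this count and those by role below, 30.4% of all genes were higher and 21.2% lower. HSP90B1, which encodes GRP94, had 957, 899 and 839 TPM in siNC and 1286, 1082 and 1057 TPM in siAHCYL1 (log2 fold change 0.34, SE 0.085, adjusted p = 0.00804). Every siAHCYL1 library lay above every control, and replicate 1 was the highest in both groups. HYOU1, the nucleotide exchange factor of BiP, had 290.3, 306 and 299 TPM against 378, 373 and 370.2 TPM (0.32, SE 0.053, adjusted p = 0.000886), a difference far wider than the spread within either group. DNAJC3, an inhibitor of PERK and BiP co-chaperone, had 25.9, 23.1 and 23.5 TPM against 36.5, 27.9 and 27.7 TPM (0.33, adjusted p = 0.0401). Its siAHCYL1 replicate 1 stood apart, and the call was lost without that library (0.20, adjusted p = 0.0866), without siNC replicate 2 (adjusted p = 0.12) or 3 (0.0909), under quantile normalization (0.0599), with no filter (0.0703) and with no trend (0.06).

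DNAJB11, a BiP co-chaperone that binds unfolded chains directly, went the other way. It had 403, 410.3 and 377 TPM in siNC and 294, 289 and 265 TPM in siAHCYL1 (log2 fold change -0.49, SE 0.064, adjusted p = 0.00023), with a wide gap between the groups. TBCCD1, on the opposite strand and at 22.8 TPM on average, overlaps 15.9% of the exon bases of DNAJB11. AC068631.2, on the same strand, overlaps 18.8% of them and has no TPM here, so its level is unknown. Between HSP90B1 and DNAJB11, the TPM ratio within a library went from 2.38, 2.19 and 2.22 in siNC to 4.38, 3.74 and 4.0 in siAHCYL1. This ratio and the 4 others given below were chosen after their values were seen and were not tested.

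HSPA5, the BiP gene, had 792, 762 and 708 TPM in siNC and 887, 833 and 814 TPM in siAHCYL1. The groups did not overlap, but the difference missed the threshold (log2 fold change 0.16, SE 0.063, adjusted p = 0.0547). Quantile normalization brought it past the threshold (0.19, adjusted p = 0.023), as did dropping siNC replicate 1 (0.20, adjusted p = 0.0336) or both replicates 1 (0.16, adjusted p = 0.0259). DNAJB9, a J-domain protein that brings BiP to IRE1, had 23.3, 19.6 and 18.7 TPM against 24.5, 23.1 and 24.2 TPM with some overlap (0.22, adjusted p = 0.0977). Dropping siNC replicate 1 took it past the threshold (0.30, adjusted p = 0.0262), and so did dropping both replicates 1 (0.29, adjusted p = 0.0243). HSPA13, DNAJC10, an ER reductase with a J domain, and SDF2L1, a stress-inducible partner of DNAJB11, overlapped between groups, with log2 fold changes of -0.11, 0.12 and 0.00.

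Of the lectin chaperones, calreticulin was higher and calnexin did not pass. CALR, which encodes the soluble calreticulin and lies at chr19:12938609-12944489 of GRCh38, had 1155, 1155 and 1151 TPM in siNC and 1776, 1839 and 1811 TPM in siAHCYL1. The control libraries had a coefficient of variation of 0.220%, and the rise was 1.57-fold (log2 fold change 0.65, SE 0.051, adjusted p = 1.14e-05). CANX, its membrane-anchored relative, had 711, 666 and 591 TPM against 658, 552 and 536 TPM, overlapping between groups (-0.17, adjusted p = 0.148). It was called lower with median-of-ratios scaling (-0.24, adjusted p = 0.0258), when siAHCYL1 replicate 1 was dropped (-0.27, adjusted p = 0.0241) or both replicates 1 were (-0.21, adjusted p = 0.0242). Both genes carry the ERSE shown above. Within a library, where a single scaling factor cancels, CALR was 1.63, 1.73 and 1.95 times CANX in siNC and 2.70, 3.33 and 3.38 times in siAHCYL1.

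The 5 genes of the CREC family, EF-hand calcium-binding proteins of the secretory pathway, did not move as a block: 1 was higher, 2 were lower and 2 did not pass. SDF4, also called Cab45 and resident in the Golgi, had 333, 356 and 358 TPM in siNC and 429.9, 439.6 and 465 TPM in siAHCYL1 (log2 fold change 0.35, SE 0.059, adjusted p = 0.00108). RCN1, reticulocalbin 1, had 359, 351 and 327 TPM against 267, 244 and 227 TPM (-0.49, SE 0.073, adjusted p = 0.000461). RCN3, reticulocalbin 3, was the family's rarest member, with 24.6, 28.6 and 30.5 TPM against 16.6, 18.4 and 14.9 TPM (-0.71, SE 0.11, adjusted p = 0.000679). For each of the 3 the groups stood clear of each other. CALU, calumenin, and RCN2 overlapped, with log2 fold changes of 0.05 and 0.07. SDF4 and RCN1 were about equal in siNC, with within-library ratios of 0.930, 1.02 and 1.09, and SDF4 was ahead in siAHCYL1 with 1.61, 1.80 and 2.05.

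Among the 6 disulfide exchange genes, 3 were higher, 1 was lower and 2 did not pass. ERO1B, which passes electrons from the isomerases to oxygen, gave the largest rise of the 38 genes, from 21.9, 21.7 and 20.5 TPM to 43.4, 40.1 and 39.9 TPM (1.92-fold, log2 fold change 0.91, SE 0.079, adjusted p = 1.95e-05). P4HB, protein disulfide isomerase itself and the beta subunit of collagen prolyl hydroxylase, had 708, 692 and 658 TPM against 1120, 1082 and 1060.4 TPM (1.59-fold, 0.66, SE 0.056, adjusted p = 1.67e-05). PDIA5 had 58.7, 58.4 and 57.9 TPM against 95.5, 88.0 and 93.5 TPM (1.58-fold, 0.65, SE 0.064, adjusted p = 4.15e-05). For these 3 every siAHCYL1 library exceeded every control by far more than the spread within a group.

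PDIA4, the most abundant isomerase transcript in the controls, had 1274, 1334 and 1231 TPM in siNC and 1142, 1101 and 1082 TPM in siAHCYL1 (log2 fold change -0.21, SE 0.057, adjusted p = 0.0129). The groups did not overlap, and the call was lost without siNC replicate 2 (-0.18, adjusted p = 0.0731), without siAHCYL1 replicate 2 (-0.20, adjusted p = 0.0531) and with no trend (adjusted p = 0.0509). PDIA3, the isomerase that works with calreticulin and calnexin, had 693, 689 and 618 TPM against 692, 651 and 646 TPM, and PDIA6 had 587, 566 and 527 TPM against 581, 549 and 543 TPM. Both had log2 fold changes of -0.01, with overlapping groups. PDIA3 has a processed pseudogene in the table, PDIA3P1, at 3.91 TPM on average, so a small part of its reads may be shared. P4HB stood at 0.555, 0.518 and 0.535 of PDIA4 in the siNC libraries and at 0.981, 0.983 and 0.980 in siAHCYL1, so the isomerase pair drew level.

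**Figure D3:**
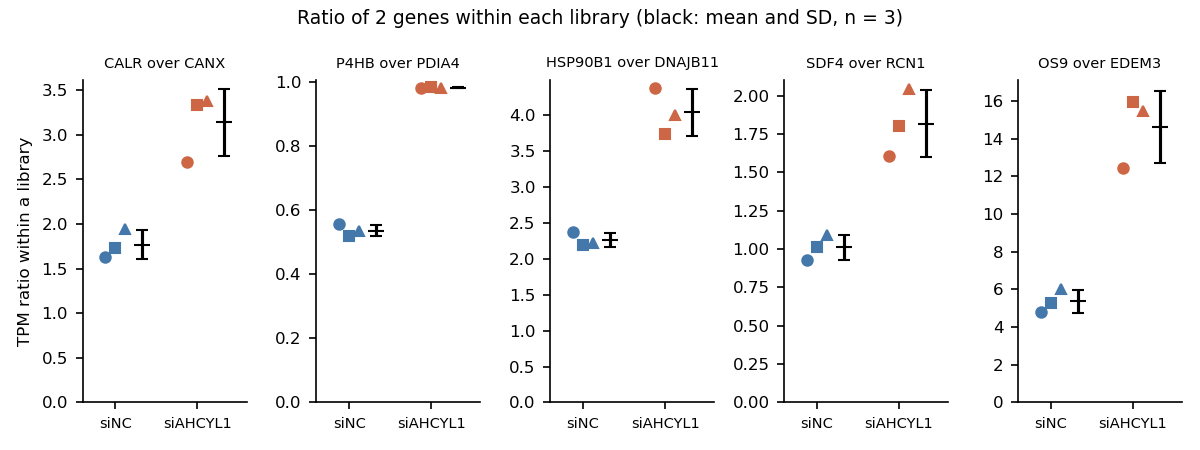
Ratio of the TPM of 2 genes with related roles within each library, with points for the 3 replicates and black bars for the mean and SD. In all 5 pairs, chosen after their values were seen, the siAHCYL1 libraries lie above every siNC library, for example at 0.980 to 0.983 against 0.518 to 0.555 for P4HB over PDIA4.

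Both genes of secreted, stress-inducible ER proteins were higher. CRELD2, a calcium-binding protein with isomerase activity, had 65.8, 68.7 and 68.0 TPM in siNC and 112, 124 and 120.2 TPM in siAHCYL1 (1.76-fold, log2 fold change 0.80, SE 0.066, adjusted p = 1.43e-05). MANF, a neurotrophic factor that binds BiP, had 266, 305 and 303 TPM against 324, 361 and 352 TPM (0.25, SE 0.073, adjusted p = 0.018). The MANF groups did not overlap, yet the call was lost with median-of-ratios scaling (0.18, adjusted p = 0.113), with no trend (0.0528) and without siAHCYL1 replicate 2 (0.22, adjusted p = 0.0751) or 3 (0.23, adjusted p = 0.0548).

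Of the 9 ERAD genes tested, 1 was higher, 2 were lower and 6 did not pass. OS9, a lectin that delivers glycoproteins to the SEL1L ligase complex, had 161, 170.7 and 163 TPM in siNC and 239, 249 and 247 TPM in siAHCYL1 (1.49-fold, log2 fold change 0.57, SE 0.057, adjusted p = 4.42e-05). EDEM3, a mannosidase that trims the sugars OS9 reads, fell from 33.5, 32.3 and 27.0 TPM to 19.2, 15.6 and 16.0 TPM, to 54.7% of control (-0.83, SE 0.11, adjusted p = 0.000296), the largest fall of the 38. Within a library, OS9 was 4.81, 5.29 and 6.02 times EDEM3 in siNC and 12.4, 15.9 and 15.5 times in siAHCYL1. HERPUD1, a stress-induced scaffold of the ligase complex, had 61.3, 61.8 and 59.9 TPM against 48.9, 53.6 and 55.6 TPM (-0.21, SE 0.073, adjusted p = 0.0362). Although its groups did not overlap, its call was lost without any 1 library other than siAHCYL1 replicate 3 (adjusted p from 0.0638 to 0.111), without replicate 1 of both groups (0.0818) and with no trend (0.0614).

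EDEM1 and EDEM2, the other mannosidase-like ERAD genes here, did not follow EDEM3. EDEM1 had 31.7, 29.2 and 28.0 TPM against 30.0, 30.3 and 29.7 TPM, and EDEM2 had 62.5, 63.1 and 61.7 TPM against 80.6, 70.3 and 63.8 TPM. EDEM2 showed no overlap between groups but missed the threshold (log2 fold change 0.19, adjusted p = 0.102), and it passed without siAHCYL1 replicate 3 (0.27, adjusted p = 0.0348). The ligase SYVN1, also called HRD1, and its partner SEL1L had log2 fold changes of 0.08 and 0.12 (adjusted p = 0.467 and 0.201). SEL1L was lowest in siNC at 48.6 TPM and highest in siAHCYL1 at 60.2 TPM, and its groups did not overlap. The derlins, membrane proteins of the extraction channel, overlapped between groups, DERL1 with 105 to 117 TPM over all libraries and DERL2 with 14.5 to 19.1 TPM (log2 fold changes -0.03 and -0.14). DERL1 was called lower under quantile normalization (-0.14, adjusted p = 0.0499).

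The sensors and regulators held 2 higher genes, 0 lower ones and 3 that did not pass. XBP1, the transcription factor whose mRNA IRE1 splices, had 117, 114 and 107 TPM in siNC and 150.4, 154 and 145 TPM in siAHCYL1 (log2 fold change 0.40, SE 0.063, adjusted p = 0.000614), with the groups well apart. Gene-level TPM do not tell spliced from unspliced XBP1. ATF6, the sensor that is cleaved into a transcription factor, had 31.6, 26.0 and 25.1 TPM against 37.2, 33.2 and 33.1 TPM (0.32, SE 0.10, adjusted p = 0.0266). Its call was lost without siNC replicate 2 (adjusted p = 0.095) or 3 (0.0873) and without siAHCYL1 replicate 1 (0.0691).

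ERN1, the IRE1 kinase and nuclease, had 24.8, 19.4 and 20.7 TPM in siNC and 28.8, 25.4 and 23.2 TPM in siAHCYL1. The ranges overlapped and it did not pass (log2 fold change 0.25, adjusted p = 0.1), but it did once siNC replicate 1 (0.35, adjusted p = 0.0317) or both replicates 1 (0.27, adjusted p = 0.0391) were dropped. EIF2AK3, the PERK kinase, had 23.1, 20.6 and 19.2 TPM against 22.5, 21.7 and 21.9 TPM, a log2 fold change of 0.07. WFS1, the ER membrane protein wolframin, which restrains ATF6 signalling and takes part in ER calcium handling, had 107, 98.2 and 99.6 TPM against 99.4, 83.8 and 92.4 TPM (-0.15, adjusted p = 0.142). WFS1 was called lower with median-of-ratios scaling (-0.21, adjusted p = 0.0264), quantile normalization (-0.26, adjusted p = 0.0116) and without siAHCYL1 replicate 1 (-0.21, adjusted p = 0.0466).

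**Figure D4:**
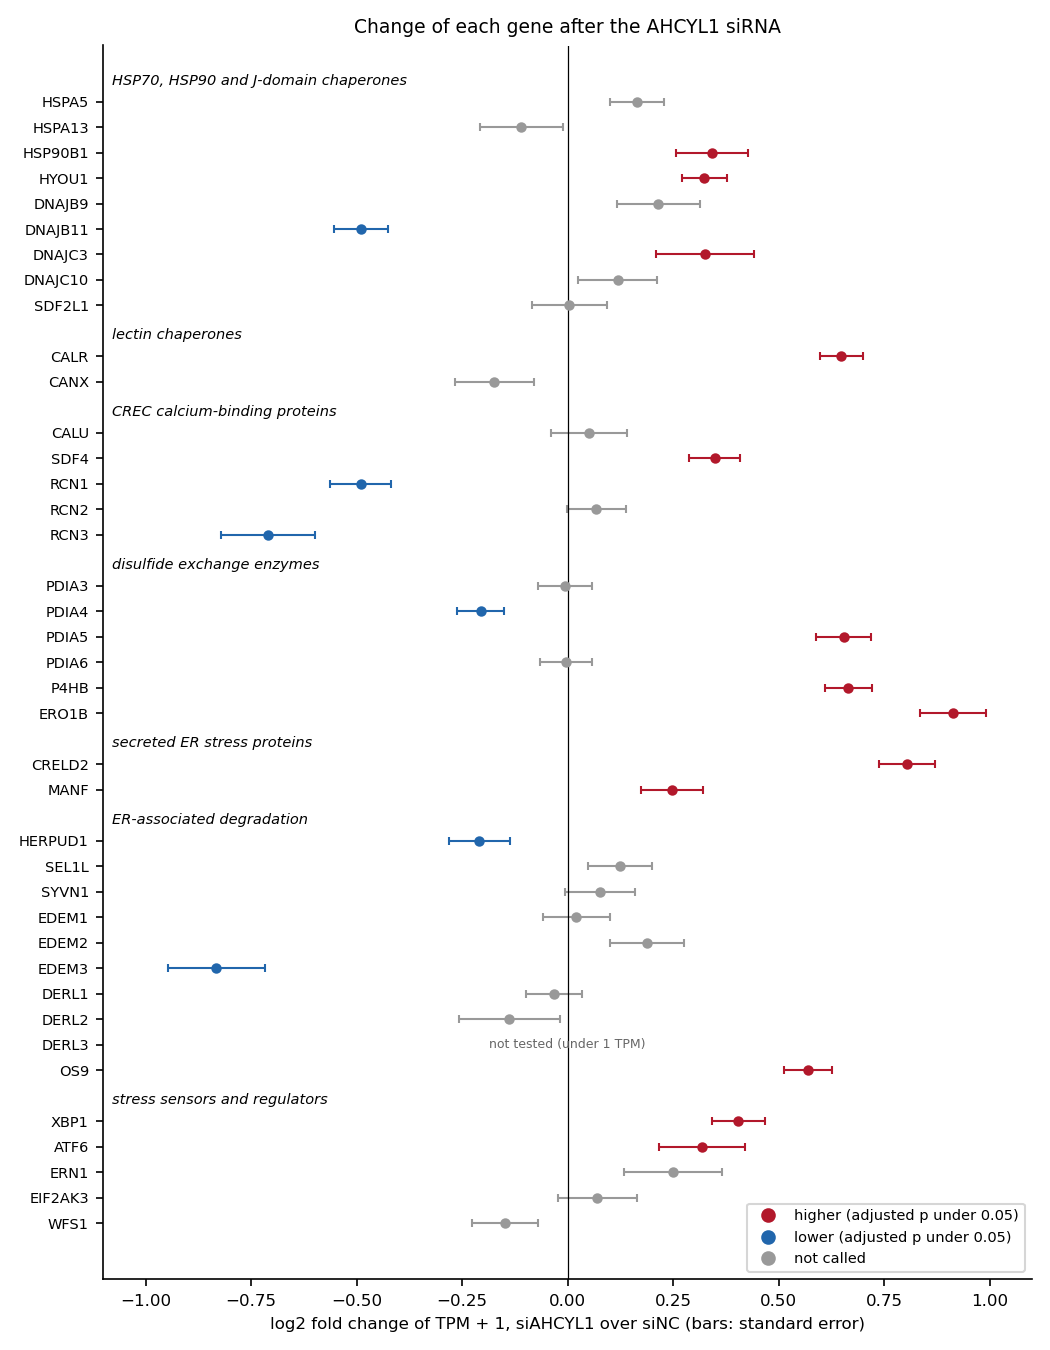
Log2 fold change of TPM + 1 (siAHCYL1 over siNC) for the 38 tested genes by role, with bars for the standard error and colour for the call. Values run from -0.83 for EDEM3 to 0.91 for ERO1B. The HSP70, HSP90 and J-domain chaperones, CREC family, disulfide enzymes and ERAD genes each hold called genes on both sides of 0.

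A pair of short 3′ UTR sequences, both picked from earlier results of these data, were looked up in the ER genes. Among 1045 genes whose longest GENCODE v29 3′ UTR holds GTATGCA, 38.5% were lower and 20.3% higher, against 20.9% and 31.2% of the genes without it. The ER genes that hold it were DNAJC10, SEL1L, EDEM3 and ATF6. Of these, EDEM3 was lower, ATF6 was higher and 2 did not pass. TCGGAGA had 260 carriers, of which 46.2% were higher and 16.2% lower, against 29.9% and 22.6% of the genes without it. P4HB was its 1 carrier among the ER genes. What part these sequences had in the levels of any of these ER genes was not tested.

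Other ER folding, degradation and signalling genes were described from 5 lists. Of the 91 listed, 87 were tested, of which 44 (50.6%) were higher and 11 (12.6%) lower, beside 30.4% and 21.2% of all genes, with a median log2 fold change of 0.29. The lower genes numbered 19 with median-of-ratios scaling and 20 with quantile normalization. Like the 39 genes, these lists were chosen with earlier results of these data known, so their shares may partly reflect that choice. No test compares these lists with the rest of the table or with the 39.

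Glycan trimming and the lectin cycle had 7 of 10 genes higher and 1 lower (median log2 fold change 0.40). Beside this list and those below, all chosen with earlier results known, 30.4% of all genes were higher and 21.2% lower. GANAB, the catalytic alpha subunit of glucosidase II, which makes the sugar that calreticulin and calnexin bind, rose from 180.1 ± 4.03 to 481 ± 6.48 TPM (1.41, adjusted p = 2.72e-07). PRKCSH, the beta subunit, rose less, from 271 ± 11.2 to 382 ± 11.1 TPM (0.50). MOGS, glucosidase I (81.9 ± 3.90 to 151 ± 8.85 TPM, 0.88) and the mannosidase MAN1B1 (0.60) rose too. CLGN, calmegin, a calnexin homolog, fell from 19.9 ± 2.97 to 8.41 ± 1.38 TPM (-1.15, adjusted p = 0.00017).

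Of 27 other folding enzymes tested, 14 were higher and 3 lower (median 0.34). The prolyl isomerases FKBP10 (106 ± 5.12 to 247 ± 6.38 TPM, log2 fold change 1.21) and FKBP9 (294 ± 8.93 to 581 ± 14.8 TPM, 0.98), and SIL1, a BiP nucleotide exchange factor (14.5 ± 1.82 to 31.8 ± 2.95 TPM, 1.08), had, with QSOX1 (0.57), the smallest adjusted p-values among the higher genes of this list. TMX1, a membrane-bound isomerase, fell from 79.0 ± 7.26 to 42.5 ± 3.91 TPM (-0.88, adjusted p = 6.36e-05).

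Of 24 other ERAD genes, 10 were higher and 4 lower (median 0.19). ERLIN1 (23.9 ± 2.82 to 65.2 ± 4.12 TPM, log2 fold change 1.41) and ERLIN2 (25.9 ± 1.16 to 72.7 ± 6.26 TPM, 1.45), which form the complex that recruits activated IP3 receptors to ERAD, had the smallest adjusted p-values of the list, followed by UBXN4 (0.72), UBE2G2 (0.61) and HERPUD2 (0.58). HERPUD2 is the paralog of HERPUD1, which was lower. FAF2 fell (-0.43, adjusted p = 0.00241).

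Of 15 other stress signalling genes, 8 were higher and 2 lower (median 0.47). CREB3 (log2 fold change 0.81), ATF6B (0.77), CREB3L2 (0.70) and MBTPS1 (0.48), which encode membrane-bound transcription factors and a protease that cleaves them, and TRIB3 (0.77) rose. ATF4, a transcription factor downstream of PERK, fell from 544 ± 20.2 to 427 ± 11.5 TPM (-0.35, adjusted p = 0.000768). In the same list DDIT3 rose from 8.78 ± 0.86 to 12.6 ± 1.01 TPM (0.47, limma adjusted p = 0.00706). PPP1R15A rose from 26.8 ± 2.91 to 43.7 ± 5.89 TPM (0.68, limma adjusted p = 0.00114). The activity of PERK was not tested. Of 11 calcium store and retrieval genes, 5 were higher and 1 lower (median 0.15). The CREC-like NUCB1 (147 ± 7.13 to 274 ± 4.71 TPM, 0.89) and NUCB2 (0.73) were higher. So were the KDEL receptor KDELR1 (0.36) and the store sensor STIM1 (0.42), with STIM2 lower (-0.58). The calcium pump ATP2A3 rose from 25.5 ± 3.25 to 39.15 ± 1.04 TPM (0.61). ATP2A2, a more abundant calcium pump, had 215 ± 9.43 and 197 ± 12.7 TPM and did not pass (-0.13, limma adjusted p = 0.146).

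**Figure D5:**
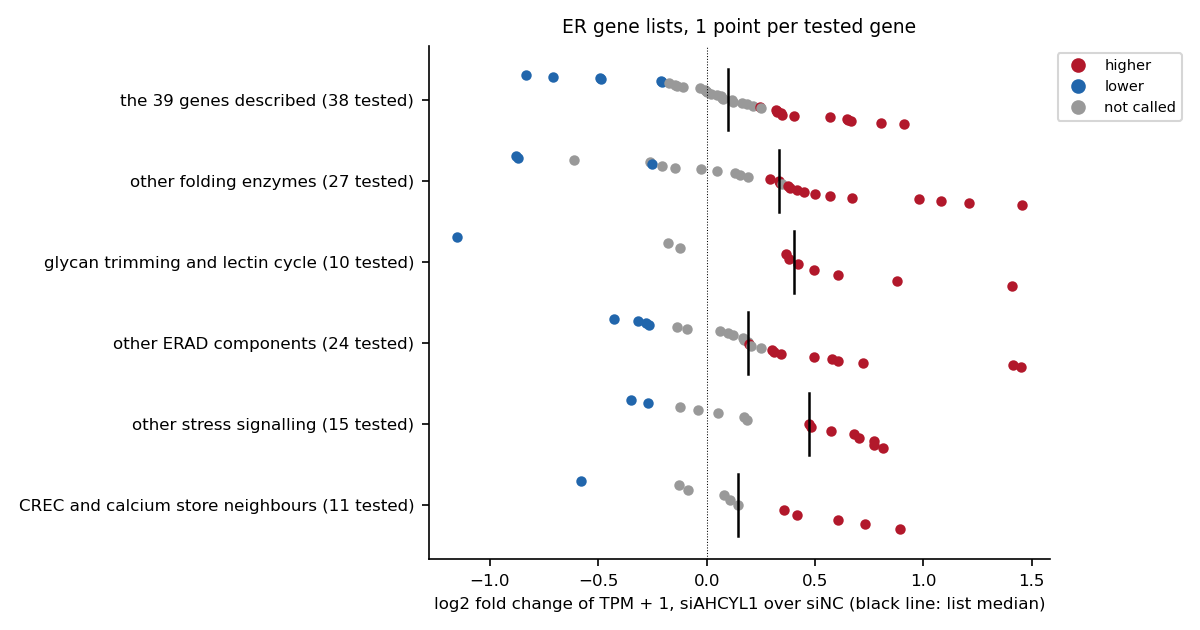
Log2 fold change (siAHCYL1 over siNC) of every tested gene in the 39-gene group and in 5 lists of other ER genes, 1 point per gene, coloured by call, with the list median as a black line. The medians are 0.10 for the 38 genes described and 0.15 to 0.47 for the other lists. All of these genes were chosen with earlier results of these data known.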

How the data were processed

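The authors deposited 1 table of TPM for 6 libraries. STAR, RSEM and GRCh38 are named per the submitters' processing notes, with versions and annotation not stated there. Per the labels' protocols, libraries were non-directional. TPM keep no depth, so depth is unknown and no counting interval was computed. Columns with the prefix nc were taken as siNC and those with si as siAHCYL1, the only other group.

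log2(TPM + 1) was tested with limma 3.58.1 (R 4.3.3), with an intensity trend, two-sided, Benjamini-Hochberg adjusted over the 13266 genes that reached 1 TPM in 3 or more libraries. Fold changes on this scale understate the change of low genes. The script was tested on simulated data. Alternatives changed the pseudocount (0.1), the filter (none, or 5 TPM), the scaling (median-of-ratios, or quantile normalization) and the moderation (robust, no trend), added the replicate number as a block, or dropped each library in turn or both replicates 1.

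All 39 genes, AHCYL1 and, from each other list, up to 5 called genes by smallest adjusted p and the one going most against its list were named. ATP2A2, DDIT3 and PPP1R15A, and FICD and the other carriers in the closing section, were chosen after their values were seen. The members and lists were chosen with earlier results of these data known. Of 91 other genes, 4 were found under an older symbol. ERSE-II as ATTGG, any base, then CCACG was added later. Protein features were not analysed here. Promoters are from RefSeq (GRCh38.p14), 3′ UTRs and overlaps from GENCODE v29 (GRCh38).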

Additional observations from a re-analysis of the deposited data

How the results depend on the processing

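Since TPM hide the depth, no limit from it is given. Over 14 alternatives and 38 genes, 0 of 532 refits reversed a call, 23 lost one, 20 gained one, and 23 changed sign while past the threshold in neither fit. Of the 19 called genes 14 kept the call in every alternative, and DNAJC3, PDIA4, MANF, HERPUD1 and ATF6 did not. Of the 19 uncalled genes 12 were never called. With 1 library left out, from 11 to 16 of the 38 genes were higher and from 4 to 7 lower. Of the 13056 to 13105 genes tested in those refits, from 3348 to 3850 were higher and from 2126 to 3074 lower. The other ER lists had from 41 to 46 higher and from 8 to 16 lower. The other ER lists had 19 lower genes with median-of-ratios scaling and 20 with quantile normalization, against 11. The summed level of the 39 genes was higher by 0.18 log2 units, by 0.12 with median-of-ratios scaling, and by 0.15 to 0.20 with 1 library left out. For these changes the cause was not tested. AHCYL1 ranged from -3.54 to -3.38.

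The replicate numbers were not taken to pair the libraries. Deviations from the group mean correlated at 0.233, 0.00092 and 0.154 between libraries of equal number, not all over 0.1. The best match of siNC replicate 2 was another number, but at only 0.00878. Between replicate 1 of a group and replicate 3 of the other, the correlations were -0.256 and -0.135. Whether the numbers mark a shared batch was not tested, and the main fit has no term for it. With the replicate block 16 of the ER genes were higher and 8 lower, all genes gave 4598 higher and 3321 lower, the other ER lists 53 and 16, HSPA5 (adjusted p = 0.00674), EDEM2 (0.046) and ERN1 (0.0244) were called higher, and CANX (0.0111) and WFS1 (0.032) lower.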

Other observations

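Outside the 39 genes, 8 tested genes carried an exact ERSE in a promoter window, of which 4 were higher and 2 lower after the AHCYL1 siRNA. Among all genes, 30.4% were higher and 21.2% lower. FICD, the enzyme that switches BiP off and on by AMPylation, rose from 4.66 ± 0.10 to 10.8 ± 1.86 TPM (log2 fold change 1.04, limma adjusted p = 0.000211). ALG12, a mannosyltransferase of N-glycan assembly, shares its element with CRELD2 and rose from 35.7 ± 4.57 to 44.6 ± 2.85 TPM (0.32, adjusted p = 0.0243). The other higher carriers were TMEM120A (0.33, adjusted p = 0.012) and ZNF17 (0.79, adjusted p = 0.00145). SERP1, which stabilises proteins at the translocon, stayed short of the threshold, at 188 ± 4.65 and 204 ± 6.65 TPM (0.12, adjusted p = 0.106). TRIM5 did not pass either (0.20, adjusted p = 0.115). EIF2A, a translation initiation factor, fell from 98.1 ± 12.1 to 63.6 ± 11.7 TPM (-0.62, adjusted p = 0.00355), and SYNPO, an actin-binding protein, fell from 9.43 ± 0.62 to 3.73 ± 0.14 TPM (-1.14, adjusted p = 5.11e-05).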
